A study of Mus musculus with 14 samples.

Results

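At 4 imprinted mouse loci that carry DNA methylation on the paternal allele 9 genes were followed, H19 and Igf2, Dlk1, Meg3, Rian and Mirg, Rasgrf1, and Zdbf2 and Gpr1. The genes were chosen by name and were all found, so that 9 of 32667 genes in the table of spermatogonia (Spg) and 9 of 36888 in that of spermatocytes (Spc) are described here. Polyadenylated RNA of sorted germ cells was sequenced from mice homozygous for a knockout of the DNA methyltransferase gene Dnmt3C (genotype Dnmt3CKO/KO, here KO) and from wild-type mice (WT), bred onto a C57Bl6/J background, with cells of littermates collected. The 14 libraries fell into 3 KO and 3 WT libraries of Spg and 4 KO and 4 WT libraries of Spc. Spg came from testes at 14 days after birth and were gated as living, ß2-microglobulin-negative and Ep-CAM-positive cells. Spc came from mice older than 20 days and were gated by dye exclusion and Hoechst DNA content, with no surface marker. By the account of the study KO germ cells arrest in meiosis, so the KO and WT Spc sorts need not hold the same stages. The mice were inbred and RNA was counted, so neither the parental allele of a transcript nor DNA methylation was measured.

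An imprint is a methylation mark that differs between the maternal and paternal allele and that decides which of them is transcribed in the body. Most imprints are set in the egg, and only a few are set in the male germ line before birth, among them those of H19-Igf2, Dlk1-Meg3 and Rasgrf1. At Zdbf2-Gpr1 the paternal methylation near Zdbf2 is completed after fertilisation and depends on a mark that the oocyte sets at Gpr1. At H19-Igf2 the paternal mark goes with silent H19, a long noncoding RNA, and with active Igf2, which encodes a fetal growth factor. At Dlk1-Meg3 it goes with active Dlk1, which encodes a membrane protein of the Delta family, and with silent Meg3, Rian and Mirg, noncoding RNAs that carry small RNAs within them. Rasgrf1 encodes an activator of Ras, and its mark is set with the help of piRNAs that match an RMER4B repeat. Zdbf2 encodes a zinc finger protein and its neighbour Gpr1 a receptor of chemerin, and both are transcribed from the paternal allele.

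All positions are on GRCm38 with GENCODE M21 genes. H19 lies at chr7:142575529-142578143 (minus strand) and Igf2 at chr7:142650766-142666816 (minus strand). On the plus strand of chromosome 12, Dlk1 lies at chr12:109452823-109463336, Meg3 at chr12:109541001-109571726, Rian at chr12:109603940-109661716 and Mirg at chr12:109729764-109749460. Rasgrf1 lies at chr9:89909908-90026977 (plus strand), Zdbf2 at chr1:63273265-63314576 (plus strand) and Gpr1 at chr1:63182691-63214543 (minus strand). Igf2 overlaps the protein-coding gene Gm49394 on its own strand, so reads of the pair cannot be told apart, and Igf2os on the other. Rian and Mirg cover many snoRNA and miRNA genes on their own strand.

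Start-site windows of the noncoding RNAs of chromosome 12 are shown because these genes share a strand and are neighbours, yet Mirg went the opposite way to Meg3 and Rian in Spc. Each window runs from 250 bases before to 50 after the start in RefSeq on GRCm38.p6, 5′ to 3′ on the plus strand, with CpG dinucleotides in capitals.
Meg3, chr12:109540746-109541045: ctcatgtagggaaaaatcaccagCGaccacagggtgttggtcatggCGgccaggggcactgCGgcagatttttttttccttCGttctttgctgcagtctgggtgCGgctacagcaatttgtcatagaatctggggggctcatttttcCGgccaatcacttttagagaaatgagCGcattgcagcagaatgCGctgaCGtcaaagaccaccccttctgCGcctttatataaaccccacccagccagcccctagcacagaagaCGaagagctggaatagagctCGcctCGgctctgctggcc
Rian, chr12:109603695-109603994: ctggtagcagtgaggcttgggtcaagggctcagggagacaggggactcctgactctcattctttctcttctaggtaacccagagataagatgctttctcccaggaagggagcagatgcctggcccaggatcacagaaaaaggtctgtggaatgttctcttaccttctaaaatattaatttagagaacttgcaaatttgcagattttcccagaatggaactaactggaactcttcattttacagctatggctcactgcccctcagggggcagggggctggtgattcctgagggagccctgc
Mirg, chr12:109734731-109735030: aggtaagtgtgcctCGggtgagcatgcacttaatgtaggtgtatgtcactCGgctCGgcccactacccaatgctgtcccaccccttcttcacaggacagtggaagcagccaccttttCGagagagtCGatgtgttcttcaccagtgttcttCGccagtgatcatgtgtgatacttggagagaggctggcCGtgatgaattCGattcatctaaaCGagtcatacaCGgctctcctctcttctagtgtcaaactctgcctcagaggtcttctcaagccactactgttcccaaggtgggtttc
The Meg3 window shown held 13 CpG, the Mirg window 10 and the Rian window 0, against a median of 7 over 32851 promoter windows of the same length. A second Meg3 start, with its window at chr12:109545148-109545447 not shown, had 1 CpG there. The RefSeq start of Mirg lies inside the GENCODE gene and its window holds miR-668-5p, miR-668-3p and miR-485-3p. The motif TGCCGC of ZFP57, searched on both strands, was found in 3 of the 14 windows of the 8 matched genes (1 each of Meg3, Igf2 and Zdbf2) and in 11.6% of all windows.

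The noncoding RNAs carry 39 annotated mature miRNAs with those in Igf2 included, of which 26 lie within Mirg, 6 within Rian, 3 within Meg3 and 2 each within H19 and Igf2. The libraries were made from polyadenylated RNA and did not measure the mature forms. A few are shown with the seed (bases 2 to 8) in capitals, the pair from Mirg at the end being the only members of the 39 that share a seed.
miR-675-5p, in H19: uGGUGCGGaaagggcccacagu
miR-770-5p, in Meg3: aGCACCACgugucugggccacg
miR-370-3p, in Rian: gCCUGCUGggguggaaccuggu
miR-134-5p, in Mirg: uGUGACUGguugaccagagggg
miR-410-3p, in Mirg: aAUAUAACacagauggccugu
miR-453, in Mirg: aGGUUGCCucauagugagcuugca
miR-496a-5p, in Mirg: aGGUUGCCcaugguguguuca

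Total counts per library ran from 40555726 to 49332778 in Spg and from 44883293 to 53323651 in Spc. Levels are given as CPM, counts in every 1000000 after TMM scaling over all 14 libraries. Dnmt3c RNA did not mark the genotype: its CPM was 1.99, 1.02 and 1.19 in KO and 1.54, 1.29 and 0.965 in WT Spg, and 1.11, 1.00, 0.991 and 1.16 in KO and 0.864, 0.332, 0.455 and 0.870 in WT Spc. Which part of the gene the allele lacks was not read from these counts. In Spc, replicates 1 and 4 were more alike than other pairs in both genotypes (r = 0.990 each, against at most 0.970 for other pairs), yet differed beyond sampling noise and were kept as separate libraries. KO Spc also held RNA of other testis cells. The summed CPM of 8 peritubular and stromal markers was 7719, 6474, 671 and 6693 in KO Spc replicates 1 to 4, against 65.7 to 87.6 in WT Spc and 35.1 to 55.8 in Spg. The sum of 5 Leydig markers was 318, 53.4, 59.3 and 260 in KO Spc, against 13.9 to 29.5 in WT Spc. RNA of Sertoli cells was also found in Spg, where the sum of 8 markers was 289 to 868 CPM in KO and 182 to 672 CPM in WT, against 161 to 586 CPM in KO Spc and 69.8 to 213 CPM in WT Spc. All of these markers had counts in all 4 groups. In bulk RNA of this kind fewer cells of a type and less RNA per cell cannot be told apart.

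**Figure D1:**
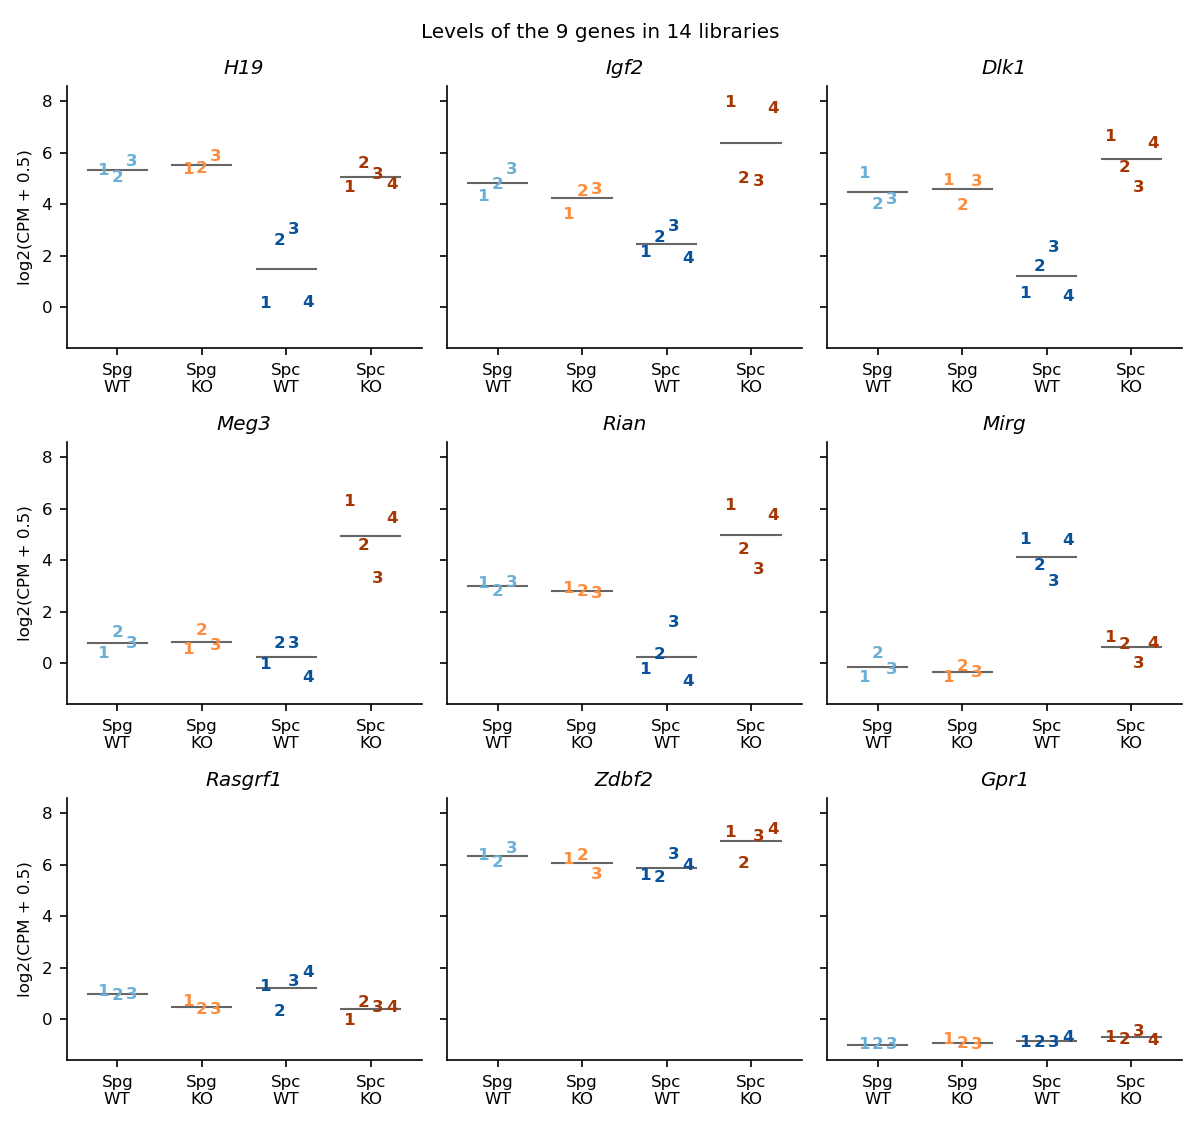
Level of each gene, as log2(CPM + 0.5), in WT and KO spermatogonia (Spg) and spermatocytes (Spc); each number is a library by its replicate number and the grey line is the group mean. In Spc, Igf2, Dlk1, Meg3, Rian and H19 sit higher in KO than in WT and Mirg sits lower. The Spg groups lie close together, and Gpr1 is near 0 CPM throughout, which is below 0 on this axis.

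Whether loss of DNMT3C goes with another level of these genes was asked first in Spg. None of the 8 genes that passed the filter on low counts was called at an adjusted p under 0.01 (edgeR quasi-likelihood test, Benjamini-Hochberg over all features), where 0.0436% of all genes were called. DESeq2 also called 0 of the 8, and 1 of the 8, Rasgrf1, had an unadjusted p under 0.05, as had 7.3% of all genes. Gpr1 did not pass the filter. The median log2 fold change of the 8 was -0.28, beside 0.02 over all genes.

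Rasgrf1, the gene whose mark depends on piRNAs, was at 1.08, 0.792 and 0.798 CPM in KO and 1.61, 1.39 and 1.438 CPM in WT Spg. The highest KO library lay below the lowest WT library, as for 7.08% of all genes in that direction. The sum of 6 pachytene markers, genes of later meiosis, was likewise lower in each KO than in each WT Spg library, from 80.7 to 90.2 CPM in KO and from 187 to 1405 CPM in WT, and its part in this value was not tested. The log2 fold change was -0.77 (SE 0.31, adjusted p = 0.620 in edgeR), and it rests on 45 to 93 counts per library. It stayed negative without any of the 6 libraries, from -0.91 to -0.69.

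H19 RNA stood at 40.1, 41.3 and 57.1 CPM in KO and 38.9, 32.3 and 50.1 CPM in WT Spg. Igf2 stood at 11.7, 21.9 and 23.5 CPM in KO and 19.4, 26.8 and 40.8 CPM in WT. The groups overlapped for both genes, with a log2 fold change of 0.16 (SE 0.21) for H19 and -0.63 (SE 0.34) for Igf2. Dlk1 was measured at 29.6, 15.02 and 29.2 CPM in KO and 36.3, 15.3 and 17.7 CPM in WT. Rian was at 6.97, 6.32 and 5.96 CPM in KO and 7.93, 6.31 and 8.32 CPM in WT. The remaining noncoding RNAs of chromosome 12 were low in Spg, Meg3 between 0.795 and 1.88 CPM and Mirg between 0.171 and 0.796 CPM. The log2 fold change was 0.06 (SE 0.39) for Dlk1, 0.01 (SE 0.43) for Meg3, -0.26 (SE 0.23) for Rian and -0.68 (SE 0.65) for Mirg, and the groups overlapped for each. Zdbf2, among the most abundant of the 9, was at 73.7, 81.9 and 49.2 CPM in KO and 81.3, 67.7 and 99.0 CPM in WT, and its log2 fold change was -0.31 (SE 0.21). Gpr1 had 4, 1 and 0 counts in KO and 0 in each WT library, which is at or near the floor of 3 counts per library, so no fold is given.

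In Spc the picture was another. Of the 8 genes tested, 7 were called, where 58.8% of all genes were. Higher in KO were H19, Igf2, Dlk1, Meg3, Rian and Zdbf2 (6 of 8, beside 28% of all genes) and lower in KO was Mirg (1 of 8, beside 30.7%). The median log2 fold change of the 8 was 3.96, beside 0.11 over all genes. Rasgrf1 did not pass the threshold.

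At H19-Igf2, H19 was at 24.4, 47.5, 35.4 and 26.8 CPM in KO Spc and 0.587, 5.49, 7.55 and 0.626 CPM in WT Spc. No KO library came near a WT library, and within WT replicates 2 and 3 stood above replicates 1 and 4. The log2 fold change was 3.28 (SE 0.78, adjusted p = 0.00388 in edgeR). Without KO replicate 2 the call was lost (adjusted p = 0.0114 in edgeR) while the log2 fold change was 3.08. Igf2 was at 246, 31.4, 28.8 and 212 CPM in KO and 3.89, 6.03, 8.24 and 3.17 CPM in WT. Here KO replicates 1 and 4 stood far above KO replicates 2 and 3, and all of them above WT. Its log2 fold change was 4.64 (SE 0.78, adjusted p = 0.00052 in edgeR).

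At Dlk1-Meg3, Dlk1 was at 100.1, 43.0, 24.7 and 80.7 CPM in KO and 0.926, 2.50, 4.43 and 0.835 CPM in WT Spc. Meg3 was at 78.3, 23.5, 9.32 and 48.8 CPM in KO and 0.463, 1.18, 1.17 and 0.174 CPM in WT. Rian was at 68.6, 20.6, 11.9 and 52.3 CPM in KO and 0.340, 0.753, 2.49 and 0.104 CPM in WT. These 3 genes shared an order of the KO libraries, with replicate 1 highest, then 4, 2 and 3, and in each KO lay wholly above WT, as for 34.2% of all genes. In edgeR the log2 fold change was 4.87 for Dlk1 (SE 0.67, adjusted p = 0.00016), 5.76 for Meg3 (SE 0.81, adjusted p = 0.00019) and 5.39 for Rian (SE 0.95, adjusted p = 0.00067).

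Mirg, at the far end of the same cluster, went the other way. It was at 1.48, 1.13, 0.496 and 1.18 CPM in KO Spc and 27.4, 13.2, 8.46 and 26.9 CPM in WT Spc. Every WT library lay above every KO library, as for 34.3% of all genes, and the log2 fold change was -4.15 (SE 0.54, adjusted p = 0.00013 in edgeR). Within a library, where scaling plays no part, WT Spc held 80.8, 17.6, 3.39 and 257 Mirg counts for each Rian count, and in the other 10 libraries Rian counts exceeded Mirg counts between 7.92 and 46.5 times. The WT Spc ratios rest on 11, 25, 104 and 3 Rian counts, the last of them at the floor of 3 counts. This ratio was chosen after its values were seen and was not tested.

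Rasgrf1 was at 0.465, 1.08, 0.877 and 0.855 CPM in KO Spc and 1.88, 0.723, 2.25 and 2.99 CPM in WT Spc. WT replicate 2 lay among the KO libraries, and the log2 fold change of -1.25 (SE 0.49) missed the threshold with an adjusted p of 0.0429 in edgeR. Without WT replicate 2 the value was -1.55, with an adjusted p of 0.00935. Zdbf2 was at 150.8, 65.9, 135 and 166 CPM in KO and 47.6, 45.3, 83.0 and 63.0 CPM in WT. KO replicate 2 lay within the range of WT, and the log2 fold change was 1.14 (SE 0.31, adjusted p = 0.00829 in edgeR). This call was lost without any single one of KO replicates 1, 3 and 4 and WT replicates 1, 2 and 4, with adjusted p from 0.0182 to 0.0298. Gpr1 had 5, 4, 11 and 3 counts in KO and 1, 1, 1 and 3 in WT Spc and was again not tested. With no filter it was tested and not called, with an adjusted p of 0.280 in Spc and 0.916 in Spg (edgeR).

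**Figure D2:**
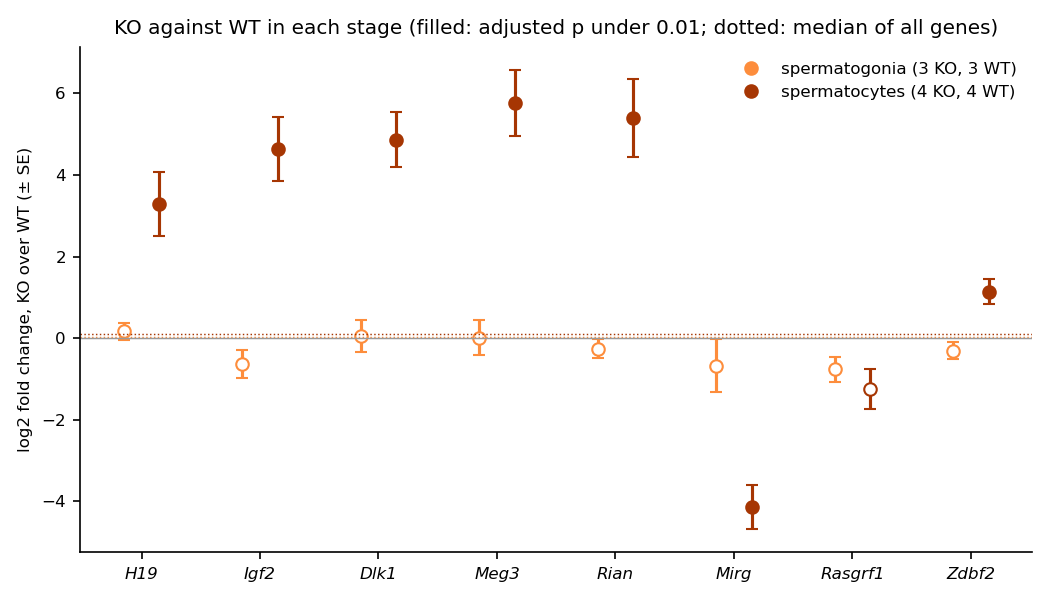
Log2 fold change of KO over WT (± SE, edgeR) of the 8 tested genes in Spg and Spc; filled points have an adjusted p under 0.01 and dotted lines are the median of all genes. All 8 points of Spg are open, whereas 7 of the 8 points of Spc are filled, from -4.15 for Mirg to 5.76 for Meg3.

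The scale between KO and WT Spc depends on the method, since TMM factors were 0.605 to 0.851 in WT and 1.05 to 1.23 in KO. With library totals in place of TMM the median over all genes rose from 0.11 to 0.79. On that scale Zdbf2 had a log2 fold change of 1.77 and Rasgrf1 one of -0.52, while those of Meg3 and Mirg were 6.31 and -3.36, so no member changed direction.

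The 4 genes with the largest rises in Spc, Meg3, Rian, Dlk1 and Igf2, had their lower KO levels in replicates 2 and 3 and their higher ones in replicates 1 and 4. KO replicate 3 also had the lowest sum of peritubular and stromal markers, and replicates 1 and 4 the highest Leydig sums. In KO Spc the Sertoli sum (586, 217, 161 and 543 CPM in replicates 1 to 4) and the sum of 4 endothelial markers (139, 80.8, 16.1 and 125 CPM) had the order of Dlk1, Meg3 and Rian, with replicate 1 highest, then 4, 2 and 3. The stromal sum had the same order, whereas the macrophage sum did not. In KO replicate 2 the stromal sum of 6474 CPM was near that of replicates 1 and 4 and the sum of 5 macrophage markers, 124 CPM, was the highest of the 4. Of these lists 7 of 8 peritubular and stromal, 5 of 5 Leydig and 5 of 5 macrophage markers were called higher in KO Spc. So were 2 of 8 Sertoli and 1 of 4 endothelial markers, and 0 of all these were lower. Over all genes 28% were higher and 30.7% lower, so the Sertoli and endothelial shares were near that of all genes. In KO replicate 3 the stromal sum of 671 CPM was still above every WT library, and there Dlk1 at 24.7 CPM and Meg3 at 9.32 CPM were also above every WT library. What part RNA of these cells has in the rise of Igf2, Dlk1, Meg3 and Rian was not tested.

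Germ cell markers moved as well. The sum of 9 spermatogonia markers was 464, 1159, 1143 and 455 CPM in KO Spc and 174, 387, 439.5 and 168 CPM in WT Spc, with 6 of 9 higher and 1 lower. H19 had the same split, with replicates 2 and 3 above replicates 1 and 4 in both genotypes. The lower marker was Id4, at a mean of 6.07 CPM in KO Spc and 162 CPM in WT Spc, where it weighed heavily in the sum. The sum of 6 pachytene markers was 237, 130, 215 and 264 CPM in KO and 15657, 13250, 8494 and 15051 CPM in WT Spc, all 6 lower in KO. Mirg in WT Spc had the order of that sum, from replicate 1 at the top to replicate 3 at the bottom, and in Spg it was highest in WT replicate 2, whose pachytene sum of 1405 CPM was the highest of the Spg libraries. This order did not hold in the other groups. In KO Spc Mirg was highest in replicate 1 and the sum in replicate 4, in KO Spg Mirg was highest in replicate 2, which had the lowest sum, and in WT Spg replicate 3 had more Mirg than replicate 1 and a lower sum. All 6 spermatid markers were lower in KO Spc as well. Whether H19 and Mirg follow the stage of the sorted cells or the genotype within a stage cannot be told apart.

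**Figure D3:**
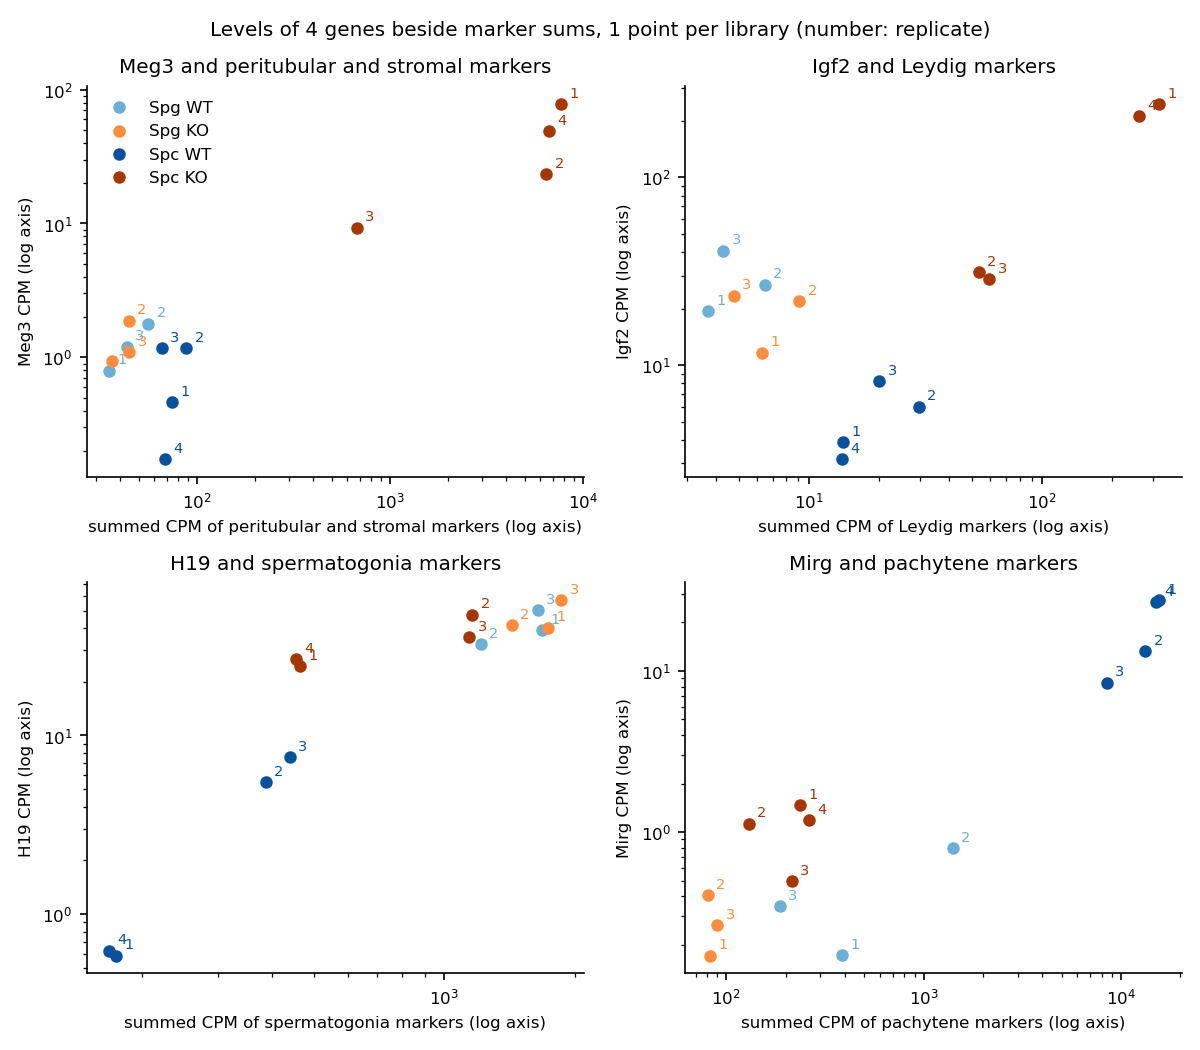
CPM of Meg3, Igf2, H19 and Mirg (y, log axis) against the summed CPM of markers of peritubular and stromal, Leydig, spermatogonial and pachytene cells (x, log axis); each point is a library, coloured by group and numbered by replicate. KO Spc lie at the upper right for Meg3 and Igf2, where KO replicate 3 has a stromal sum of 671, and WT Spc lie at the upper right for Mirg.

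Since replicates 1 and 4 stood apart, the Spc fit was repeated on replicates 2 and 3 alone and on replicates 1 and 4 alone. This division was added once the data had been seen. With replicates 2 and 3, 6 of the 8 genes were called, Zdbf2 (adjusted p = 0.243 in edgeR) no longer among them, where 23.8% of all genes were called. The log2 fold changes were 3.83 for Meg3, 3.34 for Rian, 3.31 for Dlk1, 2.696 for H19, 2.10 for Igf2 and -3.70 for Mirg. With replicates 1 and 4, the pairs picked out for their likeness, all 8 were called, where 84.5% of all genes were, with 8.04 for Rian, 7.60 for Meg3, 6.69 for Dlk1, 6.03 for Igf2, 5.41 for H19, 1.54 for Zdbf2, -1.86 for Rasgrf1 and -4.33 for Mirg. Rian in WT replicates 1 and 4 rests on 11 and 3 counts. Direction held in both pairs for each of the 8, and the size of the rise was larger in replicates 1 and 4 for all 6 genes that rose.

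**Figure D4:**
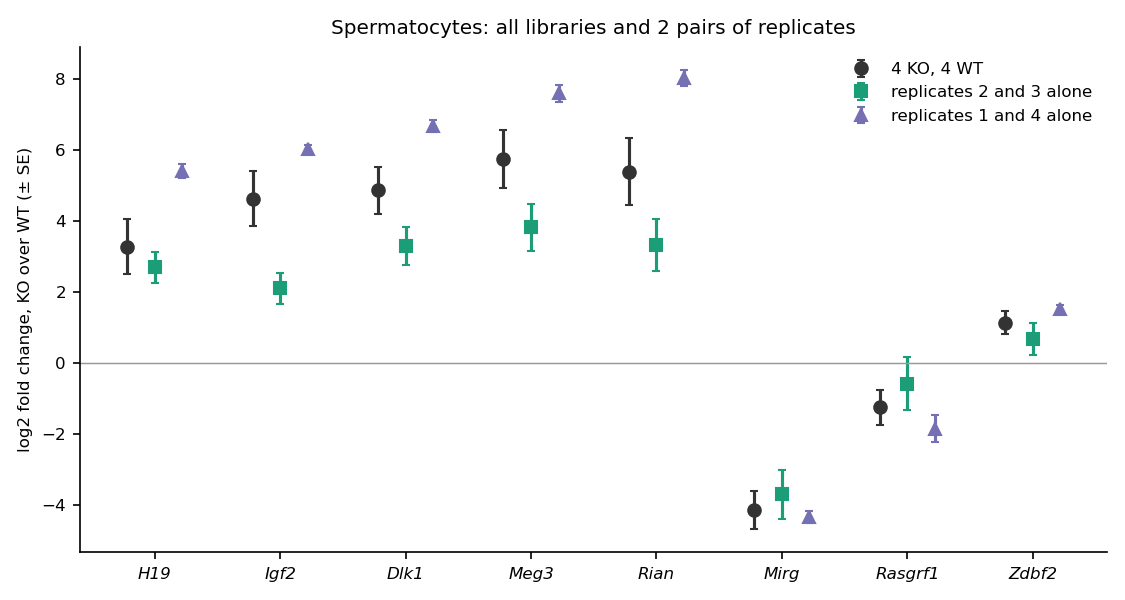
Log2 fold change of KO over WT in Spc (± SE, edgeR) for all libraries and for each pair of replicates; points above 0 are higher in KO. Igf2 goes from 2.10 in replicates 2 and 3 to 6.03 in replicates 1 and 4, whereas Mirg stays between -3.70 and -4.33.

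Within a library the ratio of Igf2 to H19 counts, which is not corrected for length, differed in Spc between the pairs of replicates in both genotypes. It was 10.1, 0.662, 0.813 and 7.92 in KO Spc and 6.63, 1.099, 1.09 and 5.06 in WT Spc. In Spg it was 0.291, 0.530 and 0.411 in KO and 0.498, 0.831 and 0.815 in WT. Igf2 counts thus exceeded H19 counts in all 4 WT Spc libraries, where both were low, and fell short of them in all 6 Spg libraries, and in Spg the ratio was lower in KO than in WT for each replicate number. The ratio was chosen after its values were seen and no test was made.

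The difference of the KO effect between stages was tested in a single fit of all 14 libraries. It was called for 5 of the 8 genes, where 25.7% of all genes were called. The KO effect was larger in Spc than in Spg, with a log2 difference of 5.67 for Meg3 (SE 1.00, adjusted p = 0.0009), 5.58 for Rian (SE 1.09, adjusted p = 0.00167), 5.21 for Igf2 (SE 0.98, adjusted p = 0.00131) and 4.73 for Dlk1 (SE 0.86, adjusted p = 0.0011), all in edgeR. That is 4 of 8 genes, beside 11.1% of all genes. For Mirg the difference was -3.52 (SE 0.82, adjusted p = 0.00435 in edgeR), beside 14.6% of all genes in that direction. H19 (3.03, adjusted p = 0.0196), Zdbf2 (1.39, adjusted p = 0.0202) and Rasgrf1 (-0.53, adjusted p = 0.505) did not pass the threshold in edgeR. With the replicate number within each stage as a block, Igf2 lost its call (4.65, adjusted p = 0.0111 in edgeR) and H19 gained one (3.73, adjusted p = 0.0062). The Mirg call was lost without Spg KO replicate 2 or 3 or Spg WT replicate 1 or 3, with adjusted p up to 0.0186, H19 was called without Spc WT replicate 3 (adjusted p = 0.00403), and Zdbf2 without Spc KO replicate 2 (0.00301) or Spc WT replicate 3 (0.00768).

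From Spg to Spc in WT, 5 of the 8 genes were called, where 52.5% of all genes were. On the log2 scale H19 fell by 3.50 (SE 0.69, adjusted p = 0.00059 in edgeR), Dlk1 fell by 3.40 (SE 0.61, adjusted p = 0.00029), Rian fell by 2.997 (SE 0.75, adjusted p = 0.00317) and Igf2 fell by 2.44 (SE 0.66, adjusted p = 0.00526). These 4 of 8 stand beside 23.3% of all genes. Mirg rose by 5.44 (SE 0.68, adjusted p = 2.44e-05 in edgeR), a 43.3-fold rise, beside 29.2% of all genes that rose. Meg3 (-0.74), Zdbf2 (-0.47) and Rasgrf1 (0.41) were not called. Marker sums moved over the same step, from between 1216 and 1686 CPM in WT Spg to between 168 and 439.5 CPM in WT Spc for spermatogonia markers, and from between 182 and 672 CPM to between 69.8 and 213 CPM for 8 Sertoli markers, where the groups overlapped. Id4 went against the other spermatogonia markers, from a mean of 23.5 CPM in WT Spg to 162 CPM in WT Spc. The pachytene sum went from between 187 and 1405 CPM in WT Spg to between 8494 and 15657 CPM in WT Spc. The part of these markers in the falls and in the rise of Mirg was not tested. Igf2 was no longer called without any single one of Spg WT replicate 3 and Spc WT replicates 1, 2 and 4, nor Rian without Spc WT replicate 1 or 2, with adjusted p from 0.0104 to 0.0176. With library totals the median of all genes was -0.76 here, Rasgrf1 turned to -0.41 and Zdbf2, at -1.24, was called.

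The step from Spg to Spc in KO shares its libraries with the comparisons above. It gave 1 call among the 8, where 3.05% of all genes were called. The gene was Meg3, whose log2 level rose by 4.93 (SE 0.80, adjusted p = 0.00195 in edgeR), as 3.01% of all genes were called in that direction. Over the same step in KO the stromal sum went from between 36.2 and 44.4 CPM to between 671 and 7719 CPM, the Leydig sum from between 4.77 and 9.10 CPM to between 53.4 and 318 CPM and the macrophage sum from between 0.771 and 1.32 CPM to between 22.2 and 124 CPM, and their part in the rise was not tested. The call was lost without any single one of the 3 Spg KO libraries (adjusted p from 0.0144 to 0.0228), while the value stayed between 4.69 and 5.22. Igf2 (2.77, adjusted p = 0.0297), Rian (2.58, adjusted p = 0.0570) and Mirg (1.92, adjusted p = 0.0634) had positive values that missed the threshold in edgeR, which Igf2 passed without Spc KO replicate 3 (adjusted p = 0.0082). Zdbf2 (0.92, adjusted p = 0.0880) and Dlk1 (1.34, adjusted p = 0.186) were positive and not called in edgeR. H19 (-0.46, SE 0.65) and Rasgrf1 (-0.12, SE 0.43) were near 0 for their error.

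Levels were set side by side between genes per kilobase of exon. In WT Spg the order of mean CPM per kb was H19 (16.4 ± 3.65, SD, n = 3), Zdbf2 (6.53 ± 1.24), Igf2 (5.07 ± 1.90), Dlk1 (4.08 ± 2.04), Rian (0.412 ± 0.0586), Rasgrf1 (0.134 ± 0.0102), Meg3 (0.0698 ± 0.0277) and Mirg (0.0601 ± 0.0441), with Gpr1 at 0. Libraries overlapped between neighbours in this order from Zdbf2 to Dlk1 and between Meg3 and Mirg, and not elsewhere. In WT Spc Zdbf2 (4.72 ± 1.37, SD, n = 4) and Mirg (2.61 ± 1.32) came at the top and H19 (1.45 ± 1.43) followed, and every neighbour in the order overlapped the next. In KO Spc Igf2 (22.7 ± 20.3, SD, n = 4), H19 (13.6 ± 4.23), Dlk1 (10.98 ± 6.09) and Zdbf2 (10.2 ± 3.49) overlapped, all lay above Meg3 (2.21 ± 1.68) and Rian (2.10 ± 1.46), and Mirg was at 0.147 ± 0.0566 CPM per kb.

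Other genes lie within 250 kb of these members, 74 of them in the tables, and were taken for the neighbourhood. In Spg 28 passed the filter and 0 were called in edgeR, where 0.0436% of all genes were. 1 of them, 4930524O08Rik upstream of Rasgrf1, had an unadjusted p under 0.05 in edgeR, as had 7.3% of all genes. In Spc 31 passed and 21 were called, 15 higher and 6 lower, beside 58.8% of all genes, 28% higher and 30.7% lower. The stromal and Leydig sums were higher in the same KO libraries, and their part in these calls was not tested. With log2 fold changes in parentheses, all 6 called neighbours at H19-Igf2 were higher, Lsp1 (4.60), Gm49394 (4.61), Mir675 inside H19 (3.15), Ctsd (2.81) with the overlapping Gm49369 (2.82), and Mrpl23 (1.46), and Igf2os (2.89, adjusted p = 0.0225 in edgeR) was not called. At Dlk1-Meg3 3 were called higher and 4930511J24Rik, beyond Mirg, was lower (-7.80, on 0 to 13 counts in KO). Mir1906-1 inside Meg3 had 10 to 65 counts in KO and 0 in each WT library, Gm24895 inside Rian had 11 to 48 in KO and 0 to 1 in WT, and Gm3379 had 66 to 109 in KO and 0 to 6 in WT, at or near the floor, so no fold is given for these 3. Reads on the small RNA genes cannot be told apart from those of their host. At Rasgrf1 both called lincRNAs upstream were lower, 1700017I07Rik and 4930524O08Rik (-5.03), as was Morf4l1 (-2.76). 1700017I07Rik had 0 to 5 counts in KO, at or near the floor, and 39 to 89 in WT, so its fold is not given either. Adamts7 (4.28), Tbc1d2b (3.42) and Ctsh (2.29) were higher, with Tmed3 (0.16) not called. At Zdbf2 Adam23 (4.48), Gm27390 (1.99) and Ino80d (1.52) were higher, 1700039I01Rik (-4.86) and Ndufs1 (-0.92) were lower, and Eef1b2 (-0.30) was not called.

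**Figure D5:**
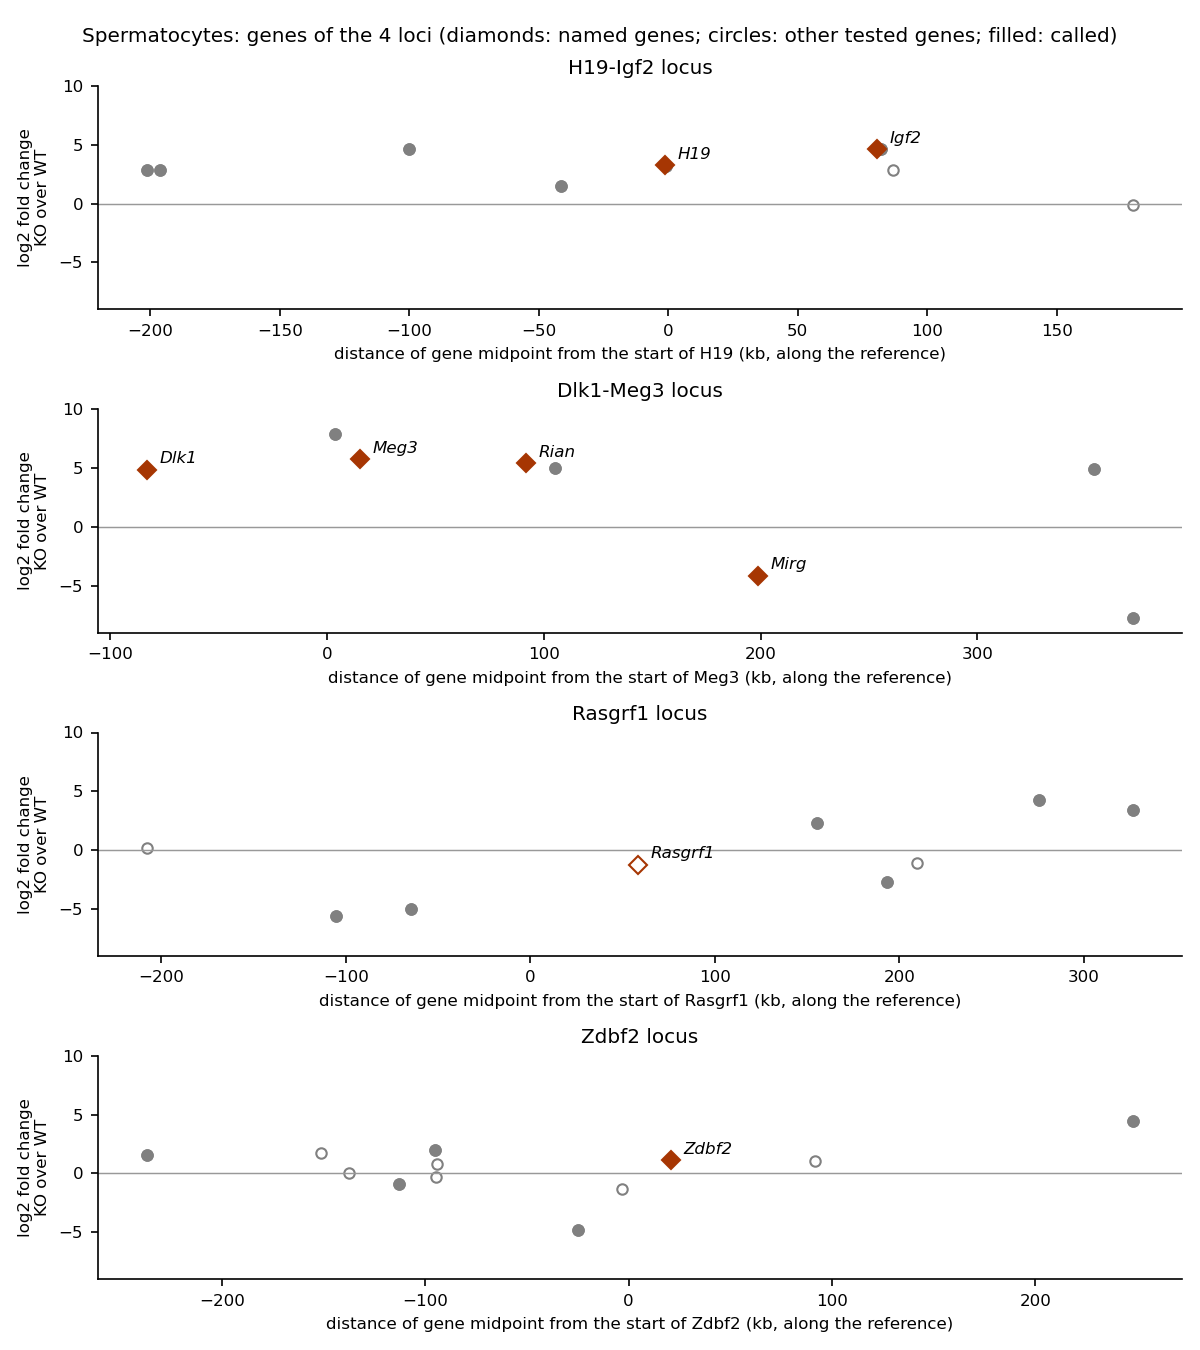
Log2 fold change of KO over WT in Spc for the tested genes of each locus, against the distance of the gene midpoint from the start of H19, Meg3, Rasgrf1 or Zdbf2 in kb; filled symbols were called and diamonds are the named genes. Higher and lower genes stand side by side at Dlk1-Meg3, Rasgrf1 and Zdbf2, with Mirg at -4.15 next to Rian at 5.39.

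Among 18 factors that set, protect or read imprints, 0 of 18 were called in Spg and 10 in Spc, 5 higher and 5 lower (median log2 fold change 0.28, beside 0.11 over all genes), where 58.8% of all genes were called, 28% higher and 30.7% lower. Dnmt3a, the methyltransferase that sets most imprints, was higher in KO Spc by 2.84 (SE 0.56), and Ctcf, which binds the unmethylated H19 control region, by 0.92 (SE 0.19). Trim28 and Zfp57, partners in keeping imprints, were lower by log2 values of -1.49 (SE 0.21) and -1.77 (SE 0.46). Pld6, a piRNA factor, was lower by -4.18 (SE 0.39), and Dnmt3l, the cofactor of the methyltransferases, by -2.45 (SE 0.57). All 6 had adjusted p between 1.85e-05 and 0.00645 in edgeR. The spermatogonia and pachytene sums given above moved with these values, and their part in them was not tested.

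Among 27 genes for partners of the members' products, 0 of 25 tested were called in Spg and 19 of 26 in Spc, 16 higher and 3 lower (median log2 fold change 2.22, beside 0.11 over all genes), where 28% of all genes were higher and 30.7% lower. Of the IGF2 partners, the growth factor gene Igf1 was higher in KO Spc by 6.33 (SE 0.82), the receptor gene Igf1r by 2.86 (SE 0.63), the gene of the clearance receptor Igf2r by 2.47 (SE 0.45) and the binding protein gene Igfbp3 by 5.35 (SE 0.51). Igf2bp3, for an RNA-binding protein, was lower (-1.94, SE 0.32). Notch3, a receptor gene of the DLK1 side, was higher by 3.43 (SE 0.53). Rarres2, which encodes chemerin, was higher by 5.68 (SE 0.68), and Cmklr1, for another chemerin receptor than Gpr1, was lower (-3.49, SE 0.55). The stromal and Leydig sums given above moved with these values too, and their part in them was not tested.

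The patterns most like those of the members were named by Pearson's r of log2(CPM + 0.5) over the 14 libraries, a description in which stage, genotype and depth are shared. Igf2 was most like Gm49394 (r = 0.999), which overlaps it, and Fbln7 (r = 0.979). Dlk1 was most like Jund (r = 0.994) and Ctdsp1 (r = 0.994), Rasgrf1 most like Gm37342 (r = 0.878) and Plb1 (r = 0.867), and Zdbf2 most like Tug1 (r = 0.969) and Zfc3h1 (r = 0.960).

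Single copies of transposable elements (TE) in the loci, taken 50 kb to either side, numbered 1339. Their TPM values were tested with limma on log2(TPM + 0.1). In Spg 93 copies passed the minimum mean TPM of 0.5 and 0 were called, where 0.00911% of all copies were. In Spc 63 passed and 2 were called, 1 higher and 1 lower, where 11.2% of all copies were called, 7.17% higher and 4.06% lower. An Lx7 LINE copy at chr12:109661512-109661691 (plus strand), inside Rian near its end, was at 16.7, 4.48, 1.93 and 15.5 TPM in KO Spc and listed at 0 in all 4 WT libraries. Its difference was 6.13 on the log2(TPM + 0.1) scale (SE 0.93, adjusted p = 0.00129 in limma), a size that depends on the 0.1 added, and the order of the KO libraries was that of Rian. An RSINE1 copy at chr1:63270986-63271070 (plus strand), just upstream of Zdbf2, was at 2.45, 0, 2.04 and 0 TPM in KO and 29.1, 19.6, 12.9 and 36.7 TPM in WT Spc. It was lower in KO by a difference of -5.57 (SE 1.21, adjusted p = 0.00842 in limma), opposite in sign to Zdbf2, and its call was lost without KO replicate 2 or 4 or WT replicate 1, 2 or 4. The 3 RMER4B copies upstream of Rasgrf1, of the kind named with its imprint, were listed at 0 in all Spc libraries and in all Spg libraries but WT replicate 2, where the copy at chr9:89881759-89881946 was at 0.645 TPM.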

How the data were processed

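Polyadenylated RNA of 14 sorted germ cell libraries was analysed. The authors trimmed reads with cutadapt 4.0, aligned them with STAR 2.7.3a to GRCm38, allowing a read to align at as many as 100 places, used TEtranscripts with the strand taken into account, and deposited raw counts per gene and TE subfamily. They deposited TPM values of single TE copies from TElocal. Their deposited log2 fold changes and adjusted p-values (DESeq2 1.44.0) were not used.

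Features were filtered by filterByExpr, scaled by TMM over genes and TE subfamilies together and tested two-sided by the quasi-likelihood test of edgeR 4.0.16 under R 4.3.3, each stage alone, and stage differences over all 14 libraries on the 31111 genes of both tables. Adjusted p is Benjamini-Hochberg over all features, with calls under 0.01. TE copies were tested with limma 3.58.1. CPM in the text come from the 14-library scale. GENCODE M21 matched 99.6% of gene identifiers. Alternatives used DESeq2 1.42.0, other scalings and filters, a threshold of 0.05, a replicate block and each library left out. The tests were checked on simulated data with a fixed spread and few, balanced changes. Such data do not hold a shift as broad as that between KO and WT Spc. Tables and plots used Python 3.11.15, NumPy 2.4.6, pandas 2.3.3 and matplotlib 3.10.9.

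The members and lists were chosen with earlier results of these data known. Named are the 9 members, called or listed genes within 250 kb of them, up to 6 imprint factors, up to 8 partners, the 2 genes most like the member of each locus with the highest mean CPM over the 14 libraries, not corrected for length, and TE copies in the loci that were called or are RMER4B. Of the 6 factors and 8 partners, the choice was made after their values were seen. Deviations of same-numbered Spg libraries had r = 0.519, 0.167 and 0.181, but KO replicate 2 with WT replicate 3 had r = 0.263. The numbers are thus not shown to pair the libraries. The block changed no call of a member in Spg, while all genes called went from 9 to 108. Whether the replicates are separate animals was not stated for each library, so p-values measure the spread between these samples. A further Spg library per genotype, left out by the authors for RNA quality, was not analysed here.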

Additional observations from a re-analysis of the deposited data

Results flagged for a closer look

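The KO effect differed between stages for 5 genes by the test of the difference in the fit of all 14 libraries. It was larger in Spc than in Spg by 5.67 on the log2 scale for Meg3, 5.58 for Rian, 5.21 for Igf2 and 4.73 for Dlk1, and the difference was negative, at -3.52, for Mirg, which was called lower in KO in Spc and not called in Spg. With the replicate number within each stage as a block Igf2 lost its call (4.65, adjusted p = 0.0111 in edgeR) and H19 gained one. The KO and WT Spc libraries also differed in markers of other cells and of meiotic stage, as given above, which was not tested as a source.

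Of 18 groups of 4 libraries, 1 had a library far from the others. Gpr1 in WT Spc replicate 4 was at 0.104 CPM, which is 3 counts against 1 in each of the other libraries. Chance alone gives a library this far in about 1 in 20 groups.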

How the results depend on the processing

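Over all alternatives the number of members called ran from 0 to 0 in Spg, from 6 to 8 in Spc and from 4 to 7 for the difference between stages. For WT Spc against WT Spg it was 5, but 6 with library totals, 4 with Spc replicates 1 and 4 summed, and from 3 to 5 with a library left out. For KO Spc against KO Spg it was 1, but 2 at an adjusted p under 0.05, 3 in DESeq2, and from 0 to 2 with a library left out. The cause was not tested. The replicate block moved the 2 called TE copies in Spc to 1, and a left-out library gave from 1 to 2. Spc numbers, too, are not shown to pair the libraries (r = 0.077, 0.208, -0.005 and 0.120). Under the block 7 members were called in Spc, 5 for the difference between stages, where Igf2 lost (4.65, adjusted p = 0.0111) and H19 gained its call (3.73, adjusted p = 0.0062), and 4 for WT Spc against WT Spg, where Igf2 lost it (adjusted p = 0.0137) and where Spg and Spc libraries share only a number. The Spg fit with the block called 0. Library totals turned Rasgrf1 to 0.22 for the difference between stages and to -0.41 for WT Spc against WT Spg. With a library left out, log2 fold changes crossed 0 in Spg for H19 (-0.0184 to 0.32), Dlk1 (-0.14 to 0.54), Meg3 (-0.33 to 0.39) and Mirg (-1.08 to 0.11), and for Rasgrf1 in KO Spc against KO Spg (-0.32 to 0.0291). Where leaving out a library left no call, fewer samples entered the fit. Of 815 values of single members under alternatives, 760 kept direction and side of the threshold. Some values rest on under 100 counts per library, which limits their precision. These are Rasgrf1, Mirg in Spg and KO Spc, and Meg3 in WT and in KO Spg replicates 1 and 3. In WT Spc they are also Rian and Dlk1 in 3 of 4 libraries, H19 in 2 of 4 and Igf2 in 1 of 4. Gpr1 was not detectable above the floor in most libraries.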
